A study of Mus musculus with 12 samples.

Results

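Erythroid cells were picked out of single-cell RNA sequencing of mouse fetal gonads by their globin content. A barcode, the tag shared by the transcripts of 1 droplet, was taken as erythroid when it held at least 500 UMIs and at least 30% of them fell on genes whose symbols start with Hba- or Hbb-. A UMI is a molecular tag that counts each captured transcript once. This choice gave 1975 of 103730 barcodes in 12 libraries (1.90%). No minimum number of genes was set, because red cells carry few transcripts other than globin.

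Gonads were collected at E12 (23 ± 3 tail somites) from XX and XY embryos of 3 genotypes, with 2 libraries in each of the 6 groups. Wild-type (WT) embryos make both splice variants of the zinc finger protein WT1, with and without the amino acids KTS. The -KTS KO embryos lack the variant without KTS, and the +KTS KO embryos lack the variant with KTS; both alleles are germline, so blood cells of the mutants carry them too. According to the study's methods the lines were kept on a mixed background, and its sample list states that gonads of several -KTS KO embryos were pooled. Tissue was dissociated with trypsin-EDTA and transcripts were captured at their 3′ ends. Wt1 counts do not separate the splice variants and thus check no genotype label. Wt1 was in any case low in erythroid barcodes, at 24.3 to 167 CPM against 117 to 250 CPM in the other barcodes, where CPM are UMIs per 1e+06 UMIs outside the Hba- and Hbb- genes.

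The first red cells of the mouse arise in the yolk sac and enter the circulation as large nucleated cells, which go on to mature and lose their nuclei in the bloodstream. These primitive cells use the embryonic globins, the ζ-like Hba-x and the β-like Hbb-bh1 and Hbb-y, together with the adult α genes Hba-a1 and Hba-a2. During their maturation Hbb-bh1 gives way to Hbb-y and Hba-x to the adult α genes. Definitive red cells, which come later from the fetal liver, use the adult β genes Hbb-bs and Hbb-bt and little embryonic globin. The gonad has no red cell production of its own, and its vessels carry circulating blood.

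The globin genes lie in 2 clusters, for which positions are given in GRCm38 from GENCODE M21. The α cluster on chromosome 11 runs on the forward strand from Hba-x (32276400 to 32278116) through Hba-a1 (32283511 to 32284465) to Hba-a2 (32296489 to 32297298). The β cluster on chromosome 7 lies on the reverse strand, with Hbb-y (103851749 to 103853216), Hbb-bh1 (103841637 to 103843164), Hbb-bh2 (103839124 to 103840520), Hbb-bs (103826534 to 103828096) and Hbb-bt (103812524 to 103813996). The 120 bases before the RefSeq start (GRCm38.p6) are printed for 6 of these genes, since their use relative to each other is what the results describe. Capitals mark matches on either strand, overlaps included, to a box of the Krüppel-like factor type with the letters CACCC, to a promoter box spelled CCAAT (or ATTGG when read from the other strand), to the motif of GATA factors, searched here as GATAA, and to the box near the start site, with the letters TATAA.
Hba-x: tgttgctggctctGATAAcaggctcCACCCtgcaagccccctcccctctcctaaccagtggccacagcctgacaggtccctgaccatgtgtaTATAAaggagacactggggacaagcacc
Hba-a1: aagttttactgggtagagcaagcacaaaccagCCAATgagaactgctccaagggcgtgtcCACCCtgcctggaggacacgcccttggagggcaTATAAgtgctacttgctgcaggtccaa
Hba-a2: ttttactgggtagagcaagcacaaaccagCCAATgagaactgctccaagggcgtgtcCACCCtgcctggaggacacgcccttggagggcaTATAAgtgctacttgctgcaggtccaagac
Hbb-y: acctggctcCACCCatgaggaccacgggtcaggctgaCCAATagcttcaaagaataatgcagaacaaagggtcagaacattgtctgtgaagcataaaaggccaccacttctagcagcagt
Hbb-bs: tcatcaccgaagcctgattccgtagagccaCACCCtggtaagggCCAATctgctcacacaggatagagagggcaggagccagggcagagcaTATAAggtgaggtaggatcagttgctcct
Hbb-bt: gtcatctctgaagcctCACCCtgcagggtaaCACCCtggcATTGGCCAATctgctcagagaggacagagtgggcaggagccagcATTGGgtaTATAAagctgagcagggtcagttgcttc

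All 6 windows held the Krüppel-like box and 5 the promoter box, which was missing from that of Hba-x. The start-site box was found in 5, not in that of Hbb-y, and the GATA motif in 1, that of Hba-x. In windows of the same length before 32851 RefSeq starts, 31.7% held the Krüppel-like box, 21.3% the promoter box, 10.5% the GATA motif and 11.8% the start-site box, and 0.688% held all of these but the GATA motif. The windows of Hba-a1 and Hba-a2 were 95.1% identical and those of Hbb-bs and Hbb-bt 74.6%. A match describes letters only, and no use of any of these sites was measured.

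The 1975 erythroid barcodes held a median of 20103 UMIs (506 to 84086) in 1345 genes (81 to 6609), and 69.4% of the UMIs were globin. The other 101755 barcodes held more genes from fewer UMIs, at medians of 3384 genes and 12001 UMIs, and 98548 of all barcodes had under 1% globin. Without globin, the median erythroid barcode held 4922 UMIs against 11994 in the others. The barcodes were chosen by total UMIs and globin share, whose values are given here as a description. Just inside the limit, 56 barcodes had 30 to 35% globin with medians of 4978 UMIs and 1308 genes. Just outside it, 45 barcodes had 25 to 30% with 4315 UMIs and 1453 genes. The next range inside, 35 to 40%, held 52 barcodes with medians of 20105 UMIs and 3446 genes. Libraries held 108111924 to 147968666 UMIs in 5988 to 11391 barcodes, and the erythroid barcodes of a library summed to 1220958 to 8794341 UMIs, of which 379768 to 3277679 were not globin.

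The study's methods kept cells with 1000 genes or more and no more than 10% mitochondrial UMIs, limits that were passed by 1228 erythroid barcodes (62.2%) and by 80.9% of the others. Of the 747 that failed, 746 had too few genes and 1 had too many mitochondrial UMIs. Barcode sequences were shared between libraries for 2670 of the 103730 barcodes, among them 62 erythroid ones, of which 2 were erythroid in more than 1 library. One library stood apart in depth: the other barcodes of XX -KTS KO replicate 2 had a median of 2791 UMIs in 1369 genes, while those of the remaining libraries had 9765 to 17759 UMIs. No doublets were removed, and a droplet with a red cell and a gonadal cell can pass the 30% limit.

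Markers other than the globins matched the name erythroid. Alas2, the enzyme that starts heme synthesis in red cells, had a UMI in 90.9% of erythroid barcodes and in 0.934% of the others. Slc4a1, the anion exchanger band 3, was found in 86.8% and 0.446%. The transcription factors Klf1 and Gata1 were found in 69.0% and 39.6% of erythroid barcodes, against 1.29% and 0.691% of the others. The lower share in each case belonged to the barcodes with more non-globin UMIs. Among the globins that the rule used, Hba-a1 was present in 100% of erythroid barcodes, Hbb-y in 99.9% and Hbb-bs in 96.6%. Globin UMIs were also found in many other barcodes, Hbb-y in 75.8% of them, so the limit of 30% and not the presence of globin separates the groups.

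Erythroid barcodes made up between 0.616% (XY -KTS KO replicate 2, 45 barcodes, exact 95% Clopper-Pearson interval 0.449 to 0.823%) and 3.44% (XX +KTS KO replicate 1, 392 barcodes, 3.11 to 3.79%) of a library. Such intervals cover counting error only. In WT libraries the share was 2.04 and 2.24% (XX) and 1.55 and 2.04% (XY), with 158 to 210 erythroid barcodes each. The -KTS KO libraries gave XX values of 1.46 and 1.07% and XY values of 1.29 and 0.616%, all below the lowest WT library. The +KTS KO libraries were split, with 3.44 and 1.65% (XX) and 1.12 and 3.29% (XY): 2 lay above all WT libraries, 1 within them and 1 below. Counted by library UMIs in place of barcodes, the erythroid share of -KTS KO was 2.16 and 1.47% (XX) and 2.21 and 1.05% (XY). That overlapped the WT values of 2.32 and 2.40% (XX) and 1.65 and 2.07% (XY).

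The mean share of barcodes was 1.11 ± 0.366% (SD, n = 4) in -KTS KO and 1.97 ± 0.295% in WT. The difference was -0.858 percentage points (two-sided exact permutation test, p = 0.0286, the smallest that 70 splits allow). Adjusted over the 8 tests between genotypes made on erythroid barcodes, p was 0.229. The difference did not hold among barcodes that passed the study's filter (-0.103 points, exact permutation p = 0.714), and with any single library left out the smallest p that the design allows is 0.0571. The +KTS KO mean of 2.38 ± 1.16% was 0.412 points above WT (exact permutation p = 0.457). How much blood a dissected gonad holds was not measured, so the share does not tell how many red or gonadal cells a gonad held. The -KTS KO libraries had 45 to 112 erythroid barcodes among 6017 to 10491 barcodes. In WT there were 158 to 210 among 8647 to 10207. The cause of the lower share was not tested.

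**Figure D1:**
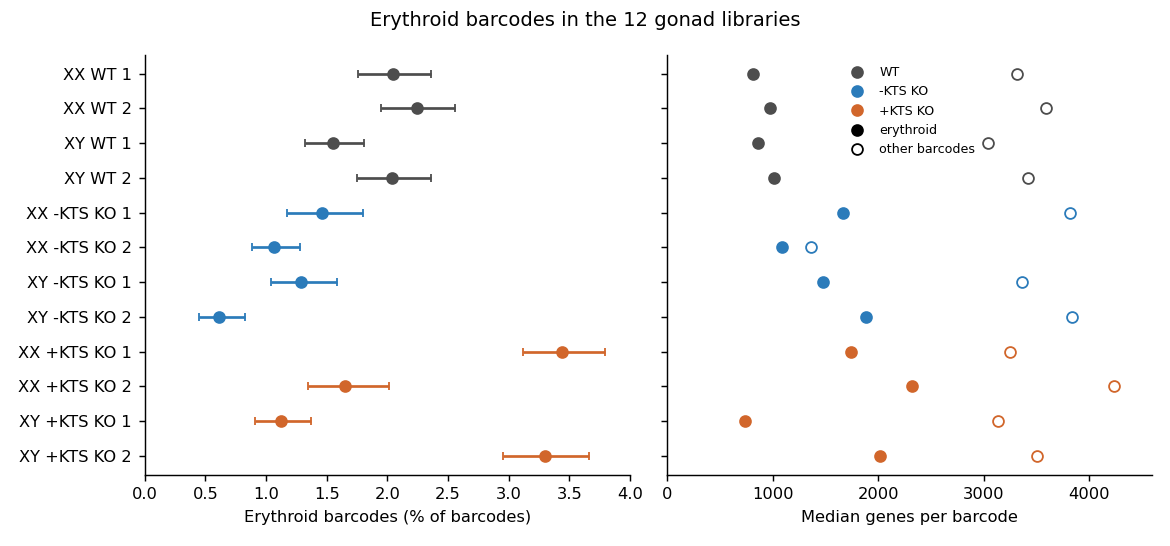
Erythroid barcodes per library. The panels plot the erythroid share of barcodes (in percent, with exact 95% Clopper-Pearson intervals) and the median number of genes of erythroid (filled) and other barcodes (open) for the 12 libraries, coloured by genotype; the 4 -KTS KO shares (0.616 to 1.46%) lie below the 4 WT shares (1.55 to 2.24%), and the 4 +KTS KO shares run from 1.12 to 3.44%.

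Embryonic globins made up most of the globin UMIs, with Hbb-y alone at 53.4% of them over all erythroid barcodes. Each UMI stands for 1 captured 3′ end, so the counts of different globins were compared without division by length. Among β-type UMIs, Hbb-y took 88.9%, the 2 adult genes Hbb-bs and Hbb-bt together 7.16% and Hbb-bh1 3.91%. These shares are pooled, and libraries contributed unequally to them. The medians over libraries were 89.0% for Hbb-y, 8.14% for the adult pair and 2.51% for Hbb-bh1. Hbb-bh2, a β-like gene of the cluster with no known use in red cells, had 112 UMIs in all. Among α-type UMIs, Hba-x took 63.3%, and the adult pair the rest. The α-type genes gave a median of 40.1% of a library's globin UMIs, from 31.9% in XY +KTS KO replicate 1 to 45.3% in XX +KTS KO replicate 2. The θ-like globins, which the rule did not use, were far lower: Hbq1b had 2879 UMIs and Hbq1a 163.

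The balance of the embryonic β genes varied among libraries. Of the UMIs on Hbb-y and Hbb-bh1, Hbb-y took 96.8 and 98.5% in XX WT and 98.0 and 96.9% in XY WT. In -KTS KO it took 97.4 and 97.7% (XX) and 98.3 and 97.1% (XY), all within the WT range. In +KTS KO it took 95.8 and 91.3% (XX) and 99.3 and 92.4% (XY). The +KTS KO libraries thus held both the lowest and the highest value of the series, and Hbb-bh1 gave 8.67% in XX +KTS KO replicate 2 and 0.653% in XY +KTS KO replicate 1.

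The Hba-x share varied more widely. Of α-type UMIs, Hba-x took 52.9 and 63.8% in XX WT and 59.7 and 59.3% in XY WT. In -KTS KO gonads it took 64.7 and 61.8% (XX) or 58.2 and 61.5% (XY). In +KTS KO gonads the XX values were 66.5 and 64.8%, while the XY values, 38.5 and 70.4%, were the lowest and the highest of all. In XY +KTS KO replicate 1 Hba-a1 and Hba-a2 together therefore outnumbered Hba-x, which was the case in no other library.

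The adult β genes took 11.5 and 6.70% of β-type UMIs in XX WT and 8.19 and 8.09% in XY WT. For -KTS KO the values were 7.96 and 11.8% (XX) or 10.4 and 8.27% (XY), and for +KTS KO 5.03 and 6.12% (XX) or 10.4 and 4.54% (XY). The lowest share was that of XY +KTS KO replicate 2, which also had the highest Hba-x share. Embryos varied in stage within the range of tail somites given above, and the part of stage in these values was not tested.

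**Figure D2:**
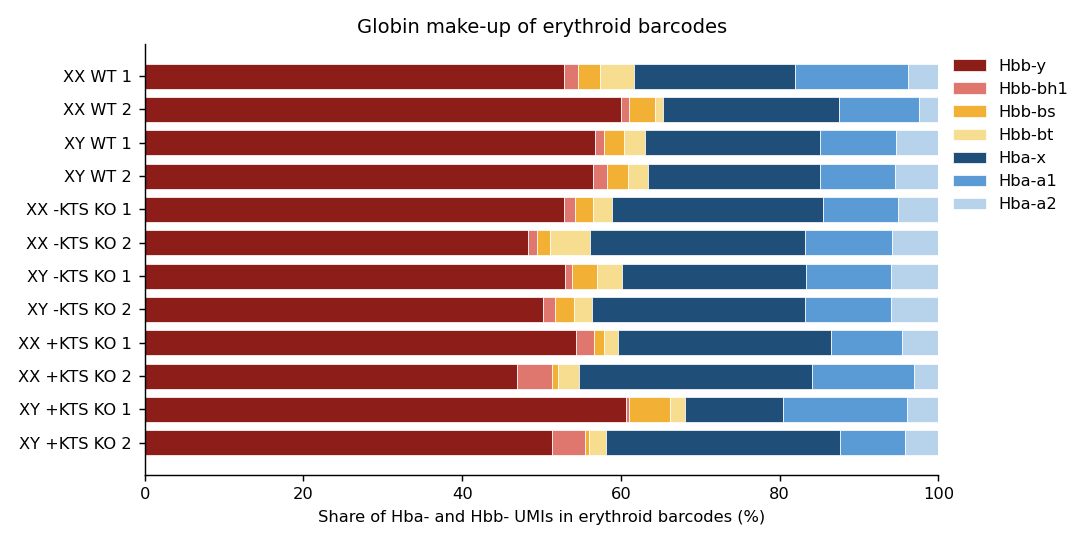
Globin make-up of erythroid barcodes. Stacked bars give each gene's percent of all globin UMIs, summed over the erythroid barcodes of each of the 12 libraries; Hbb-y is the widest part of every bar (46.9 to 60.6%), and Hba-x is narrowest in XY +KTS KO replicate 1 (12.3%).

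Over all 4 libraries a genotype, no difference in these shares passed the test. The Hbb-y share of Hbb-y and Hbb-bh1 was 97.6 ± 0.506% (SD, n = 4) in -KTS KO, 94.7 ± 3.63% in +KTS KO and 97.6 ± 0.810% in WT (two-sided exact permutation p = 0.971 and 0.229). For Hba-x the means were 61.5 ± 2.65%, 60.1 ± 14.6% and 58.9 ± 4.52% (exact permutation p = 0.400 and 0.943). For the adult β genes they were 9.63 ± 1.84%, 6.51 ± 2.65% and 8.61 ± 2.03% (exact permutation p = 0.429 and 0.314). Adjusted over the 8 tests, no p was below 0.610 for the globin shares. The +KTS KO values rested on XY +KTS KO replicate 1: without it, the differences from WT were -4.39 points for Hbb-y, 8.32 points for Hba-x and -3.38 points for the adult β genes, in place of -2.85, 1.13 and -2.10, each at an exact permutation p of 0.0571, the smallest that 3 libraries against 4 allow. That library was singled out after its values were seen. The SD of the +KTS KO libraries was the largest of the 3 genotypes for each of the 3 shares. With 4 libraries a genotype, the intervals around such means are wide.

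**Figure D3:**
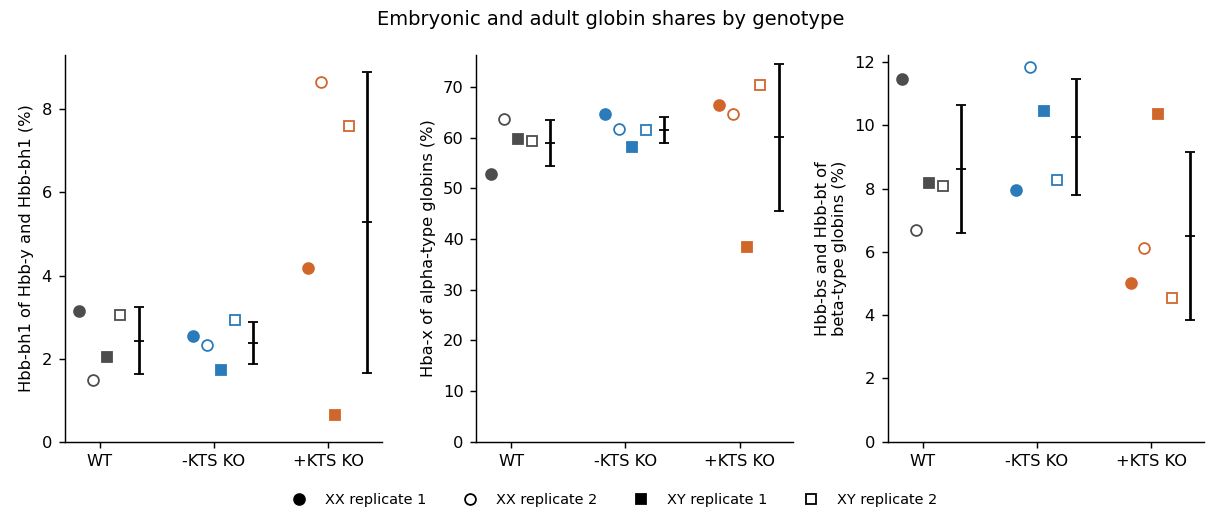
Globin shares by genotype. Points are libraries (circles XX, squares XY, open symbols replicate 2) and bars the mean ± SD of 4 libraries for the Hbb-bh1 share of Hbb-y and Hbb-bh1, the Hba-x share of α-type and the adult share of β-type UMIs, in percent; the +KTS KO points spread from 0.653 to 8.67% for Hbb-bh1 and from 38.5 to 70.4% for Hba-x, and the genotypes overlap in every panel.

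In their β-type globins, single barcodes were embryonic with few exceptions, while the α-type make-up was more mixed. Hba-x took 37.6 to 74.7% of the α-type UMIs in 90% of barcodes. Adult β genes took a median of 6.67% of the β-type UMIs of a barcode, and 90% of barcodes lay between 1.42 and 14.9%. They took under 5% in 660 barcodes, 5 to 10% in 843, 10 to 15% in 375, 15 to 20% in 84 and 20 to 50% in 11, the highest of these at 30.7%. No barcode lay between that value and 100%. Exactly 2 barcodes were at 100%, both in XY +KTS KO replicate 1. They held 3423 and 8691 UMIs in 125 and 485 genes, 93.4 and 86.4% of them globin, with no UMI on Hbb-y, Hbb-bh1 or Hba-x. Erythroid barcodes with an adult β majority were thus 2 of 1975.

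Barcodes richer in adult β genes held less embryonic α globin. From the lowest to the highest of the 5 ranges under 50%, Hba-x fell from 67.9 to 48.8% of α-type UMIs, Hbb-bh1 from 4.25 to 1.04% of the embryonic β UMIs and the median number of genes from 1746.5 to 752. For the embryonic globins the comparison was repeated inside libraries, where barcodes under 10% adult β were set against those at 10 to 50%, a split chosen after the values were seen. Hba-x was lower in the upper range in 12 of 12 libraries (median 57.3 against 63.9%) and Hbb-bh1 in 11 of 12, the exception being XY WT replicate 2. The median number of genes was lower in 10 of 12 and higher in XX WT replicate 1 and XY -KTS KO replicate 2 (2128.5 against 1874 in the latter). Within libraries, the rank correlation of the adult β share with the Hba-x share over barcodes ran from -0.45 to -0.19 and that with the Hbb-bh1 share from -0.54 to -0.12. The rank correlation with the number of genes ran from -0.40 to 0.17 and was below 0 in 9 of 12. These correlations are a description; barcodes of a library share their RNA pool and differ in depth.

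Summed levels of the gene lists were compared between the same ranges. The summed level of 22 proliferation genes, in CPM, was lower in the upper range in 12 of 12 libraries, at a median of 1834 against 3228 CPM. The summed level of the iron list, most of it from Fth1 and Ftl1, was higher there in 11 libraries (68036.5 against 54736 CPM), as was that of the organelle clearance and ubiquitin list (8379 against 6675 CPM). The heme synthesis sum showed no common direction, being lower in 6 of 12. Single genes were not compared between the ranges. The upper range held 7 to 106 barcodes a library and was shallower in 9 of 12, and the part of depth was not tested.

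The split of UMIs within the adult β pair varied widely among barcodes, and that within the adult α pair little. The Hbb-bt share of Hbb-bs and Hbb-bt ran from 23.2% in XX WT replicate 2 to 83.8% in XY +KTS KO replicate 2 over libraries. Inside a library it was broad: over barcodes with at least 50 UMIs on the pair, its SD was 17.6 to 22.8 percentage points, where counting alone gives 1.84 to 2.95. Of 1707 such barcodes, 175 had under 20% and 498 over 80% Hbb-bt. The Hba-a1 share of Hba-a1 and Hba-a2 was narrow in contrast, with SDs of 1.84 to 5.19 points against 1.15 to 2.99 from counting.

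Between libraries the Hba-a1 share took 2 levels. It was 78.8% in XX WT replicate 1, 80.4% in XX WT replicate 2, 80.5% in XX +KTS KO replicate 2 and 80.01% in XY +KTS KO replicate 1, and 63.4 to 66.1% in the other 8 libraries. The higher level was thus found in both XX WT libraries and in 1 +KTS KO library of each sex. No XY WT library and no -KTS KO library had it. The annotated transcripts of Hba-a1 and Hba-a2 differ by 1 mismatch where they align, apart from their ends, and those of Hbb-bs and Hbb-bt by 45. How surely reads on the α pair were assigned to each copy was not measured, and the values of each copy are uncertain. The lines were of mixed background; the part of strain alleles in either pair was not tested.

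**Figure D4:**
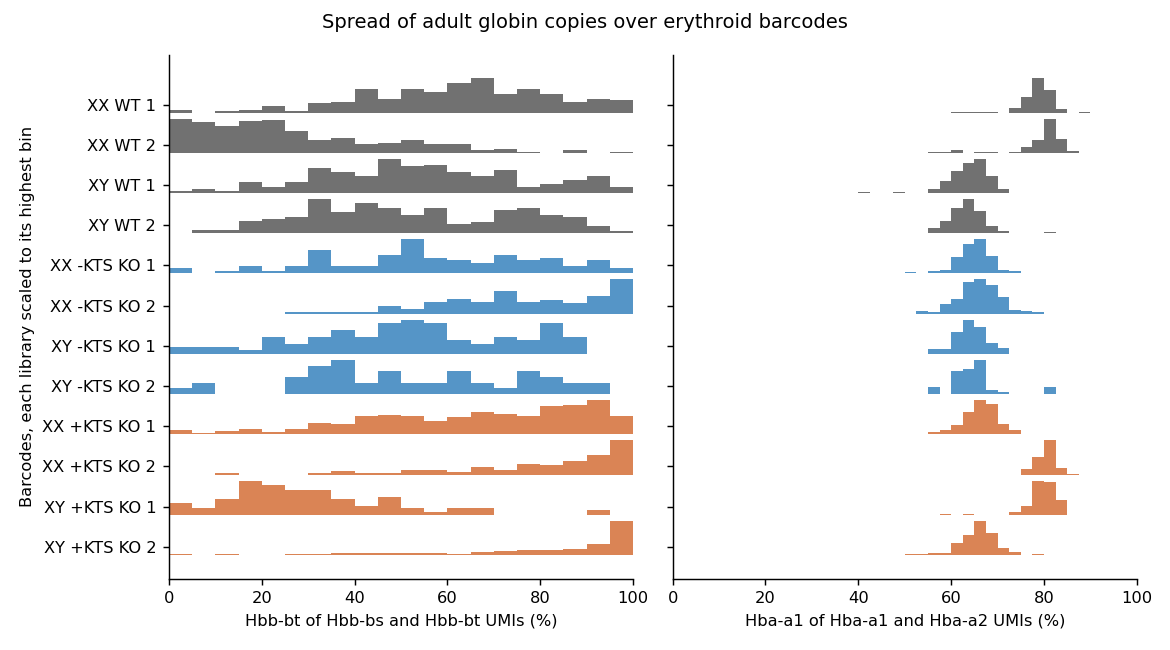
Use of the adult globin copies in single erythroid barcodes. Histograms, 1 per library and each scaled to its highest bin, cover barcodes with at least 50 UMIs on the pair. They give the Hbb-bt percent of Hbb-bs and Hbb-bt and the Hba-a1 percent of Hba-a1 and Hba-a2. Hbb-bt spreads over most of the range in each library, while Hba-a1 forms a narrow peak. Pooled Hba-a1 shares are 63.4 to 66.1% in 8 libraries and 78.8 to 80.5% in 4. The Hba-a1 values of XX WT replicate 2 have a tail toward lower shares.

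Outside the globins, 9 of the 30 leading genes of erythroid barcodes were on the list of the red cell membrane and skeleton, and 1 each on those of heme synthesis (Alas2), erythroid transcription factors (Klf1), hemoglobin protection and redox (Car2) and organelle clearance and the ubiquitin pathway (Trim10). Hba- and Hbb- genes were left out of the counts, UMIs were summed per library, and the erythroid sum was set against the other barcodes of the same library (edgeR quasi-likelihood test with library as block, Benjamini-Hochberg adjusted p under 0.05). Of 15173 genes, 3206 were higher (21.1%) and 6643 lower (43.8%) in erythroid barcodes, together 64.9%. The globin rule set this contrast, so the counts describe the chosen barcodes and support nothing. They also hang on the scaling: with total non-globin UMIs instead of TMM factors, 1576 were higher and 11246 lower, and the median log2 difference moved from -0.48 to -1.23.

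Alas2 was higher in erythroid than in other barcodes by 11.43 ± 0.30 on the log2 scale (estimate ± SE; edgeR adjusted p = 5.67e-21), at 1426 to 2309 CPM against 0.440 to 2.89 CPM. Membrane proteins among the 30 leading genes included Slc4a1 (11.35), the Rh proteins Rhd (11.19) and Rhag (11.08), the Kell antigen Kel (11.12) and Ermap (11.25). Of the membrane skeleton, protein 4.2 Epb42 (9.85) and β-adducin Add2 (8.77) were among the 30. Control genes were Klf1 (9.07) and Hemgn (11.41), a nuclear protein of blood cells. Ion and metabolite handling was represented by carbonic anhydrase Car2 (9.83), the calcium-activated potassium channel Kcnn4 (9.44) and the metal transporters Slc30a10 (10.70) and Slc39a8 (8.62).

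Several leading genes have less obvious links to red cells. Cldn13, a claudin, was 11.58 log2 units higher at 165 to 284 CPM. Hsd3b6, of the family of steroid dehydrogenases, was 11.25 higher and ranged from 242 to 1713 CPM. Ncf4, a subunit of the phagocyte oxidase complex, was 10.78 higher at 455 to 1496 CPM, and Pdzk1ip1, a small membrane protein whose gene lies next to Tal1, was 11.40 higher at 658 to 942 CPM. The θ-globin Hbq1b (11.69) was the only globin-like gene among the 30. All 30 were higher in erythroid barcodes in 12 of 12 libraries by construction of the list.

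With globin, mitochondrial and ribosomal protein genes left out, the 10 most abundant transcripts included those of iron storage and peroxide removal. Ferritin heavy chain Fth1 had a median of 36804.5 CPM over libraries (30729 to 50895) and light chain Ftl1 16628 CPM (11761 to 20471), against 2316 and 2371 CPM in the other barcodes. The peroxide-removing enzymes Prdx2 and Gpx1 had medians of 11821.5 and 8635 CPM, against 1472 and 319 CPM. Nudt4, a polyphosphate hydrolase, had 4279 CPM against 98.6 CPM. Malat1, Tpt1, Gm42418, Eef1a1 and Oaz1 completed the 10, but Eef1a1 (0.66 on the log2 scale) turned to -0.03 with total-UMI scaling. In CPM, Malat1 was higher in erythroid than in other barcodes in 9 of 12 libraries and Eef1a1 in 5.

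**Figure D5:**
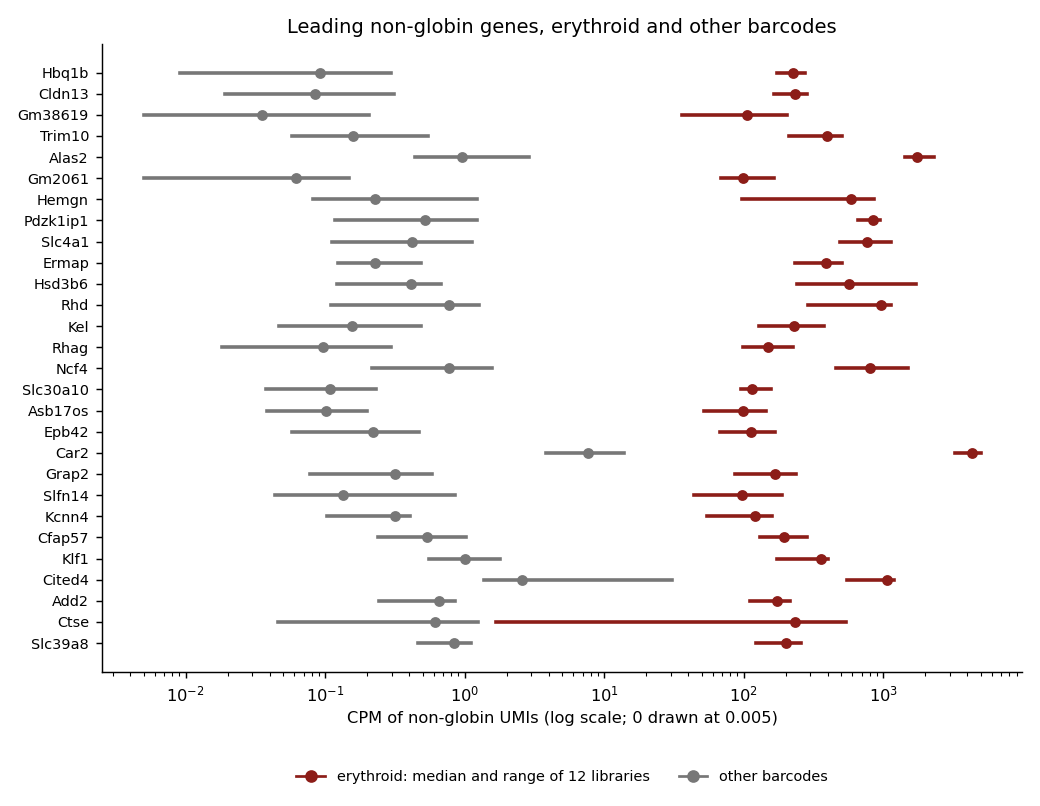
Leading genes of erythroid barcodes. Lines span the lowest to the highest of 12 libraries and points the median, in CPM on a log axis with 0 drawn at its left end, for the erythroid sums (red) and the other barcodes (grey) of leading genes; erythroid Alas2 lies at 1426 to 2309 CPM and its level in other barcodes at 0.440 to 2.89 CPM.

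Most genes of heme synthesis were higher, from Alas2 at the first step to Fech at the last. In erythroid barcodes 11 of 13 were higher and 2 lower, against 21.1 and 43.8% of all genes tested. The median log2 difference was 4.39 against -0.48 over all genes tested. Ferrochelatase Fech, which inserts iron, was 6.24 ± 0.10 higher and coproporphyrinogen oxidase Cpox 5.91. The 2 lower genes were Alas1 (-1.13), the housekeeping counterpart of Alas2, and Clpx (-0.31), a mitochondrial chaperone. Alad ranged from 438 CPM in XY +KTS KO replicate 1 to 3745 CPM in XX -KTS KO replicate 1.

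Of 13 genes of iron uptake and handling, 9 were higher, 2 lower and 2 past neither threshold (median 2.88). Over all genes tested, 21.1% were higher and 43.8% lower. The mitochondrial iron importer Slc25a37 was 7.91 ± 0.12 higher and its relative Slc25a28 was at -0.36 (edgeR adjusted p = 0.114). Glutaredoxin Glrx5 (4.24) and the transferrin receptor Tfrc (3.30) were higher, and the iron regulatory protein Aco1 was lower (-0.88). In the membrane and skeleton list, 22 of 24 genes were higher and 2 lower (median 7.41). Mpp1, a palmitoylated membrane protein, was lower by a small margin (-0.43). Aqp1, the water channel, had 0 UMIs in erythroid barcodes, which allows up to 0.222 CPM, and 775 UMIs in the others.

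Among 20 transcription factors of the erythroid lineage, 14 were higher, 5 lower and 1 neither (median 2.12). The shares over all genes tested were 21.1% higher and 43.8% lower. Gfi1b (8.42), Gata1 (8.07), Tal1 (7.96) and Nfe2 (7.66) were higher. The lower ones were Myb (-1.94), Gata2 (-1.76), Sox6 (-1.54), Bcl11a (-1.02) and Klf2 (-2.30); of these Myb and Gata2 are known from progenitors, Sox6 and Bcl11a from the silencing of embryonic globin in definitive cells, and Klf2 from the activation of embryonic globin and from endothelium. Myb had 6 UMIs over all erythroid barcodes, Sox6 51 and Bcl11a 33. Ldb1, the bridging factor of the Tal1 complex, was 0.44 higher but -0.29 with total-UMI scaling.

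Protection of hemoglobin was covered by 15 genes, of which 13 could be tested: 12 were higher and 1 lower (median 3.12). For all genes tested the shares were 21.1% higher and 43.8% lower. Car2 and Bpgm, which makes the oxygen-affinity regulator 2,3-bisphosphoglycerate, were 9.83 and 7.02 higher, and Blvrb 6.44. Hmox1, which breaks heme down, was lower (-1.06). Cyb5r3 was 0.66 higher but -0.05 with total-UMI scaling. Car1, the carbonic anhydrase of adult red cells, had 0 UMIs in erythroid barcodes (up to 0.222 CPM) and 808 in the others, and Ahsp was not analysed here.

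For organelle clearance and the ubiquitin pathway, 14 of 16 genes were higher, 0 lower and 2 neither (median 2.09). Among them were the mitophagy receptor Bnip3l (2.23) and the ubiquitin enzymes Ube2l6 (6.55) and Ube2o (2.40). Over all genes tested, 21.1% were higher and 43.8% lower. Ubb was 0.24 higher but -0.45 with total-UMI scaling. Of 11 receptors and survival genes, 7 were higher, 1 lower and 3 neither (median 2.33): the erythropoietin receptor Epor was 8.17 ± 0.24 higher and Bcl2l1 3.19, while Kit, the stem cell factor receptor, was lower (-2.25).

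Proliferation genes were also expressed. Of 22, 15 were higher, 2 lower and 5 neither (median 0.92), beside 21.1% higher and 43.8% lower of all genes. Their sum ran from 1072 CPM (XY +KTS KO replicate 1) to 4318 CPM (XX +KTS KO replicate 2). In other barcodes the sum ran from 1704 to 2719 CPM. Mki67 (2.99), Rrm2 (1.96) and Ccna2 (1.92) were higher, and the replication licensing genes Mcm3 (-0.43) and Mcm4 (-0.42) lower. Pcna, Top2a and Rrm1 (0.60, 0.61 and 0.55) turned to -0.10, -0.08 and -0.16 with total-UMI scaling. Of 10 genes of cell cycle exit, 8 were higher and 2 lower (median 1.39), with Cdkn2c (5.14) and Cdkn2d (3.17) the highest and Cdkn1a (-1.26) and Cdkn1c (-1.32) the lower ones. The summed level of this list was nevertheless lower in erythroid than in other barcodes, at a median of 740 against 1287 CPM, in all libraries but XY WT replicate 2.

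Markers of other cells were low but not absent. All 10 gonadal somatic, all 6 germ cell, all 6 endothelial and all 4 perivascular markers were lower in erythroid barcodes. Of 8 macrophage markers 7 were lower and 1 was not tested. Of all genes tested, 43.8% were lower and 21.1% higher. Of 8 megakaryocyte and platelet markers, 4 were tested, 2 higher and 2 lower. The summed gonadal somatic markers had 128 to 709 CPM in erythroid and 640 to 1231 CPM in other barcodes, and the germ cell markers 10.1 to 863 CPM against 636 to 3022 CPM. The endothelial sum was 2.51 to 120 CPM against 65.0 to 135 CPM, the macrophage sum 0 to 2.90 against 11.7 to 51.7 CPM, the megakaryocyte sum 6.89 to 36.9 against 13.6 to 158 CPM and the perivascular sum 2.46 to 8.44 against 14.0 to 32.5 CPM. Within a library the erythroid sum exceeded that of other barcodes for endothelial markers in XX WT replicate 1 (120 against 104 CPM) and for megakaryocyte markers in XX -KTS KO replicate 2 (18.5 against 13.6 CPM).

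Gonadal and germ cell markers were highest in the barcodes of lowest globin share. Gonadal somatic markers summed to 783 CPM in the 243 barcodes with 30 to 50% globin, 94.0 CPM in the 803 with 50 to 70% and 40.3 CPM in the 929 with 70% or more. Germ cell markers summed to 430, 35.4 and 38.7 CPM in the same order. Macrophage markers, at 1.46, 1.82 and 0.480 CPM, and megakaryocyte markers, at 9.52, 25.7 and 15.1 CPM, were not highest in the lowest range. Erythroid markers other than globins went the other way, at 1624, 4244 and 5933 CPM. The share of such RNA that came from free transcripts or from another cell in the droplet was not tested.

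Few genes differed between genotypes in erythroid barcodes. In a single edgeR fit over the 6 groups, the -KTS KO libraries had 8 of 6355 genes lower than WT (0.126%) and 0 higher, with 387 genes at an unadjusted p under 0.05 and 35 calls by DESeq2. The 8 were Cst9, Akr1cl, 2010204K13Rik, Wnt6, Sat2, Kctd14, Ldhb and Aplp2. Kctd14 had 479, 697, 581 and 567 CPM in the WT libraries and 71.0, 62.8, 175 and 158 CPM in the -KTS KO libraries, which did not overlap (log2 difference -2.37 ± 0.31, edgeR adjusted p = 0.00664). Akr1cl had 127 to 154 CPM against 1.34 to 12.9 CPM (-4.21 ± 0.56, edgeR adjusted p = 0.00664).

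All 8 genes also had a lower mean in the other barcodes of the -KTS KO libraries, a difference not tested, Kctd14 at a mean of 646 against 1615 CPM and Akr1cl at 72.4 against 420 CPM, and 7 of the 8 had a log2 difference below 0 between erythroid and other barcodes. Aplp2, the exception, had 99.3 CPM in WT and 40.4 CPM in -KTS KO erythroid barcodes. Cst9, a cystatin, had 0 UMIs in the 4 -KTS KO libraries. The mean of the 4 WT libraries was thus at least 56.1-fold higher (floor of 3 UMIs over the group). WT had 8.71 and 5.21 CPM in XX and 122 and 146 CPM in XY, so this bound rested on XY and does not hold for XX alone. When the globin limit was raised to 50%, edgeR called 0 of 4880 genes in this comparison. Barcodes of 30 to 50% globin had the highest level of gonadal somatic markers (783 CPM), whose part in these 8 calls was not tested; the limit of 50% also left fewer barcodes and fewer genes to test. Of the heme, iron, membrane, transcription factor, redox, clearance, receptor, proliferation and cell cycle exit genes tested, edgeR called 0 in this comparison, where the list medians of the log2 difference lay between -0.14 and 0.30.

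In +KTS KO, 4 of 6355 genes departed from WT (0.0629%), 2 of them upward (0.0315%) and 2 downward (0.0315%), with 580 at an unadjusted p under 0.05 and 14 calls by DESeq2. Eif3j2, a translation initiation factor subunit, had 65.2, 83.8, 72.1 and 76.0 CPM in +KTS KO against 33.4, 9.38, 3.38 and 13.5 CPM in WT (2.52 ± 0.39, edgeR adjusted p = 0.0295). Its mean in the other barcodes was 40.8 against 10.1 CPM. Cyp11a1, the first enzyme of steroid synthesis, had 23.5 to 64.6 CPM against 0 to 6.75 CPM (3.37 ± 0.51) and was 108 against 14.9 CPM in the other barcodes. Cst9 (-3.57) and Spp1 (-3.96), the secreted protein osteopontin, were the lower ones, and for Spp1 the libraries of the genotypes overlapped. With a globin limit of 50% edgeR called 0 of 4880 genes, and with total-UMI scaling the calls of Eif3j2 and Cyp11a1 were lost.

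The +KTS KO comparison turned on XY +KTS KO replicate 1, a library singled out after its values were seen. Of the fits with 1 library left out, this gave the most calls, and it left 1 XY +KTS KO library. The calls and adjusted p-values below are therefore a description of the other 3 +KTS KO libraries and no test of genotype. Without XY +KTS KO replicate 1, which had the shallowest erythroid barcodes by genes (median 740.5) and the highest gonadal somatic marker sum (709 CPM), 502 of 6963 genes differed (7.21%), 208 higher (2.99%) and 294 lower (4.22%). The other 3 +KTS KO libraries then had 12 of 22 proliferation genes higher and 0 lower (median 0.70 against -0.02 over all genes), among them Tyms at 1.04 ± 0.19 and Mcm3 at 1.07 ± 0.19 (edgeR adjusted p = 0.00458 and 0.00421). Of 90 ribosomal protein genes, 25 were higher. Of 16 clearance genes 7 were lower, led by the nuclear export receptor Xpo7 (-2.35 ± 0.17, edgeR adjusted p = 1.68e-06), as were 4 of 23 membrane genes tested, led by the complement regulator Cd59a (-2.81 ± 0.23, edgeR adjusted p = 6.81e-06).

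The library left out lay beyond WT on the opposite side for Xpo7 and Tyms, and just below WT for Cd59a. Xpo7 had 23.7, 26.8 and 22.0 CPM in the 3 +KTS KO libraries, 180, 190, 94.6 and 89.0 CPM in WT and 353 CPM in XY +KTS KO replicate 1. Tyms had 382, 572 and 413 CPM, 167 to 309 CPM in WT and 67.1 CPM in that library. Cd59a had 91.4, 120 and 61.6 CPM against 465 to 1009 CPM in WT and 390 CPM in that library. The same 3 libraries had the highest Hba-x shares of the 12 and the lowest Hbb-y shares of Hbb-y and Hbb-bh1, and the library left out the lowest Hba-x share. Genotype, embryo and stage cannot be told apart with 1 such library against 3.

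The sexes differed by 3 of 6355 genes, 1 higher (0.0157%) and 2 lower (0.0315%) in XX (0.0472% in all; 334 at an unadjusted p under 0.05, 6 calls by DESeq2), in the direction of the labels. Xist had 292 to 420 CPM in the 6 XX libraries and 0 UMIs in the 6 XY libraries, at least a 764-fold difference (floor of 3 UMIs over the group). Eif2s3y had 43.6 to 74.3 CPM in XY and at most 2.08 CPM in XX (edgeR adjusted p = 1.01e-06), and Ddx3y 10.1 to 38.6 against at most 1.04 CPM (edgeR adjusted p = 0.00369). The other Y-linked genes Kdm5d and Uty had 1 to 18 and 1 to 13 UMIs in XY and 0 in XX. Summed over its erythroid barcodes, each library thus bore the sex of its label. The exceptions were 2 UMIs on Eif2s3y and 1 on Ddx3y in XX WT replicate 2, whose other barcodes had 0 on either gene. The source of these UMIs was not tested.

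Globin RNA outside the erythroid barcodes was scarce. They held 86.7 to 99.4% of a library's globin UMIs, and globin made up 0.0142 to 0.216% of the UMIs of the other barcodes. Over the 12 libraries that share did not follow the erythroid share of barcodes detectably (Pearson r = 0.376, permutation p = 0.229; Spearman rho = 0.301, permutation p = 0.342; r = 0.399, permutation p = 0.252, without XX +KTS KO replicate 1 and XY +KTS KO replicate 2). This rested on the choice of libraries: r was 0.588 without XY +KTS KO replicate 2 alone (permutation p = 0.0488). With a globin limit of 50%, r was 0.846. That limit counts erythroid barcodes below it as other barcodes, so their globin enters the share of the other barcodes by construction. The value at 50% is therefore no test of a relation. The globin of the other barcodes resembled that of the erythroid ones in most libraries. It had less Hba-x in 12 of 12, by 0.0895 to 16.5 points. The Hba-a1 share of the adult α pair was lower in the other barcodes in 11 of 12, by up to 12.6 points. Globin make-up departed most in XY -KTS KO replicate 2, where adult β genes took 33.0% of β-type UMIs in the other barcodes, over 16354 globin UMIs. They took 8.27% in the erythroid ones. Of 1549 other barcodes with at least 20 β-type UMIs, 15 had an adult majority.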

How the data were processed

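Droplet 3′ single-cell RNA sequencing was made of 12 gonad libraries, in 6 groups of 2 replicates. The authors deposited 1 matrix of raw UMI counts per library (32285 features), made with Cell Ranger 6.0 on mm10 according to the submitters' processing notes. The labels and the study's methods differ on the version of the 3′ kit. Nothing in the labels says whether replicates came from separate litters, so p-values measure the spread between libraries. Erythroid barcodes were selected on at least 500 UMIs and at least 30% of UMIs on Hba- or Hbb- genes. No doublets were removed. The members and gene lists were chosen with earlier results of these data known.

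Hba- and Hbb- genes were left out and the remaining counts summed per library, separately for erythroid and other barcodes. edgeR 4.0.16 (R 4.3.3, TMM factors, filterByExpr, quasi-likelihood test, Benjamini-Hochberg adjusted p, threshold 0.05) compared erythroid with other sums within libraries, and genotypes and sexes in 1 fit over the 6 groups. DESeq2 1.42.0 was an alternative. Shares per library were compared by two-sided exact permutation tests over the 70 splits of 4 against 4, and correlations by 100000 resamples. Python 3.11.15 with numpy 2.4.6, scipy 1.17.1, pandas 2.3.3, Biopython 1.88 and matplotlib 3.10.9 was used. On simulated erythroid sums for the -KTS KO comparison (200 changed genes in each of 10 draws, a mean of 6126 genes tested), changes of 1.5-fold were found in 5.075% of cases, of 2-fold in 35.52% and of 4-fold in 82.27%, while 3.436% of calls were unchanged genes.

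The named genes were the globins, the 30 non-globin genes with the largest log2 difference from other barcodes among those called, with at least 100 CPM and higher in all 12 libraries, the 10 most abundant genes that were neither mitochondrial nor ribosomal protein genes, members of the lists, and for each genotype or sex comparison the 5 largest rises and falls called without overlap between groups at 20 CPM or more. Kctd14, Ldhb, Aplp2 and Spp1 fall outside that rule and were named after their values were seen. Some genes named by this rule are not reported here. Sex-linked genes checked the sex labels, and Wt1 counts could check no genotype label. The replicate numbers were not read as pairs, and the labels do not say whether same-numbered libraries shared a batch.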

Additional observations from a re-analysis of the deposited data

Results flagged for a closer look

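Among the 6 XY libraries, XY +KTS KO replicate 2 stood apart with the lowest Hbb-y share of Hbb-y and Hbb-bh1 (92.4%), and XY +KTS KO replicate 1 with the highest Hba-a1 share of the adult α pair (80.01%). Among the 6 XX libraries, XX WT replicate 1 stood apart with the lowest Hba-x share of α-type UMIs (52.9%). Among the 4 -KTS KO libraries, XX -KTS KO replicate 2 stood apart with the lowest median UMIs of an erythroid barcode (11911.5), and its other barcodes were the shallowest of the series too. In each case the gap to the nearest library was larger than Dixon's 95% critical value allows. In all, 40 groups were examined, and chance alone gives about 1 such case in 20.

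The Hba-a1 share differed between -KTS KO and WT by -14.7 percentage points in XX and by 0.636 points in XY, with 2 libraries in each group. The difference between the sexes was not tested.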

How the results depend on the processing

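The number of erythroid barcodes was 2070 with a globin limit of 20%, 1732 with 50%, 1838 with at least 1000 UMIs, 1228 under the study's limits on genes and mitochondrial UMIs and 1913 without barcodes seen in another library, an alternative chosen after seeing the data. The -KTS KO difference in erythroid share was -0.987 points with at least 1000 UMIs (exact permutation p = 0.0571), -0.103 points under the study's limits, and -0.858 points with a replicate block, whose smallest possible exact permutation p is 0.0556. It ran from -0.997 to -0.693 with 1 library left out. The +KTS KO difference in erythroid share, 0.412 points, was 0.974 under the study's limits. With 1 library left out it ran from 0.0573 (without XX +KTS KO replicate 1) to 0.830 (without XY +KTS KO replicate 1). The Hbb-y share difference of -KTS KO turned to -0.0987 as a median of barcodes and ran from -0.187 to 0.372 with 1 library left out. The Hba-x difference of +KTS KO turned to -0.520 under the study's limits and ran from -2.32 (without XY +KTS KO replicate 2) to 8.32 (without XY +KTS KO replicate 1). With 1 library left out, the correlation of globin in other barcodes with the erythroid share ran from r = 0.129 to 0.588. The highest was that without XY +KTS KO replicate 2 (permutation p = 0.0488). The correlation was 0.846 with a globin limit of 50%, which counts erythroid barcodes under that limit as other barcodes. Their globin thus enters the share of the other barcodes by construction, and this value is no test of a relation. The cause was not tested for any of the other shifts.

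Calls between -KTS KO and WT numbered 35 by DESeq2, 127 with no filter on low counts, 0 with a globin limit of 50% and 28 with the replicate block, and 1 to 46 with 1 library left out, the most without XY +KTS KO replicate 1 or replicate 2. For +KTS KO they numbered 14, 170, 0 and 15, with 2 under total-UMI scaling and 1 to 502 with 1 library left out. For the sexes they numbered 6 by DESeq2, 40 with no filter and 3 to 96, the most without XY +KTS KO replicate 2. Same-numbered libraries correlated at -0.0926 to 0.211 over 15 pairs, so the numbers were not read as pairs. With total-UMI scaling 7 named genes turned below 0 in erythroid against other barcodes: Eef1a1 (-0.034), Cyb5r3 (-0.0499), Ldb1 (-0.29), Pcna (-0.10), Rrm1 (-0.16), Top2a (-0.0824) and Ubb (-0.45). The tests planned between barcodes of adult and embryonic β make-up were not run, since no library held 10 barcodes of each. With 4 libraries a genotype, most 2-fold changes went unfound in the simulation.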

Other observations

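Some genes of erythroid barcodes were on in some libraries and close to 0 in others, across genotype and sex. They were singled out after their values were seen, among 1189 genes with at least 100 CPM. Ctse, the aspartic protease cathepsin E, had 3.38 CPM in XY WT replicate 1, 1.68 in XX +KTS KO replicate 2, 17.4 in XY +KTS KO replicate 1 and 2.75 in XY +KTS KO replicate 2, and 82.7 to 538 CPM in the other 8 libraries. Krt15, a keratin, had 0 UMIs in XY WT replicate 2 and 145 to 662 CPM elsewhere. Lmx1a, a homeobox gene, had 0 UMIs in XY +KTS KO replicate 1 and 90.6 to 150 CPM elsewhere. Gm10260 had 513 to 748 CPM in 6 libraries and 8.03 to 36.9 CPM in the other 6. These values were not tested against any grouping.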
